A study of Mus musculus with 4 samples.

Results

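The 10 genes described here encode the core of the Polycomb machinery and the enzymes that remove its histone mark: Ezh1, Ezh2, Eed and Suz12 of Polycomb repressive complex 2 (PRC2), Ring1, Rnf2, Bmi1 and Cbx2 of Polycomb repressive complex 1 (PRC1), and the H3K27 demethylases Kdm6a and Kdm6b. They were chosen by name from the 25587 genes of the deposited table, and all 10 were found in it. The study sequenced total RNA of mouse oocytes as they grow in the ovary, to ask which transcripts cover the genome while DNA methylation is laid down. The deposited values are RPKM: the reads on a gene divided by its exon length in kilobases and scaled to the depth of the library. Non-growing oocytes (NGOs), growing oocytes in an earlier (GO1) and a later (GO2) collection, and fully grown oocytes (FGOs) of the germinal vesicle stage were each measured in 1 library, made from a pool of many oocytes.

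All 4 groups came from untreated wild-type C57BL/6Babr mice aged 5 to 20 days, with NGOs from the youngest and FGOs from the oldest animals, and ribosomal RNA was removed from each before library preparation. The labels call both GO1 and GO2 growing oocytes, and the study tells them apart by the age of the mice. A dUTP protocol was used for NGOs and FGOs and the ScriptSeq kit for GO1 and GO2. Stage and kit therefore cannot be told apart between NGOs and GO1 or between GO2 and FGOs, and the changes described in most detail are those within a kit, between NGOs and FGOs and between GO1 and GO2. With 1 library per stage there was no replicate check, no p values were computed, and each interval is a 95 % interval for counting error only.

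Polycomb proteins keep genes silent by modifying histones. In PRC2, EZH1 or EZH2 methylates lysine 27 of histone H3 (H3K27) and needs EED, which binds the methylated product, and SUZ12, which holds the complex together. In PRC1, RING1 (RING1A) or RNF2 (RING1B) attaches ubiquitin to histone H2A, helped by a PCGF partner such as BMI1, and in canonical PRC1 a CBX protein such as CBX2 binds the methylated H3K27. KDM6A (UTX) and KDM6B (JMJD3) remove the methyl groups. In mouse oocytes, PRC2 is known for H3K27 methylation that passes to the embryo and can act as an imprint, and PRC1 for silencing developmental genes during oocyte growth.

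The library totals behind the RPKM values, recovered from genes with 1 exon, lay between 110595207 and 241385703 reads, and 55.7 to 58.4 % of these fell on the listed genes. They are larger than the numbers of uniquely mapped reads given by the study, so the intervals below take 4 reads as 1 fragment, a choice made after seeing the data. A gene with 1 kb of exons and 3 reads, the floor for detection, has an RPKM of 0.0124 to 0.0271. Of 14 oocyte markers such as Zp3 and Gdf9, all were above 1 RPKM in every library, with summed RPKM of 5256 to 7868. Summed RPKM were 6.46 to 14.0 for 12 granulosa cell markers, of which Nr5a2 gave 3.62 to 11.4, and 3.37 to 12.4 for 4 endothelial markers, of which Pecam1 gave 1.74 to 9.70. Of the granulosa markers, Foxl2, Amh and Amhr2 were at most 0.412 RPKM, while Inha and Kitl reached 1.54 and 1.63 RPKM in FGOs. From GO2 to FGOs, a pair that crosses kits, Amh was 16.6-fold, Amhr2 6.28-fold and Inha 5.47-fold higher. These rest on 8 and 82 reads for Amh, 15 and 54 for Amhr2 and 92 and 272 for Inha. Wt1 and Nr5a2 were lower in that pair, and the Wt1 interval included 0 (log2 change −0.78, −2.77 to 1.04). From NGOs to FGOs, made with the same kit, the log2 change was 0.76 (−0.43 to 1.84) for Amh, −0.75 (−1.79 to 0.32) for Amhr2 and 1.32 (0.66 to 2.04) for Inha. The part of granulosa cells in the levels of the 10 genes was not tested. The endothelial marker Cdh5 was at most 0.0408 RPKM and at 0 in GO2 and FGOs. Of the other endothelial markers, Tek was at 1.56 to 2.79 RPKM over the libraries and Kdr at 0.0249 to 0.108. The 5 blood and immune markers summed to 0.662 to 1.70 RPKM. The 8 markers of stroma and theca summed to 5.61 RPKM in NGOs and to 0.304 to 0.471 in the other libraries, and Col1a1, a collagen of stromal cells, was at 2.24 RPKM in NGOs and at most 0.0191 elsewhere. Of these 8, 6 or 7 had at least 3 reads in each library, and Lum was at 0 in GO1, GO2 and FGOs. The strand setting of the counting is not given in the sources used here. Of the 10 genes, only Kdm6b has a span that overlaps another listed gene, the antisense gene 1700064E03Rik at most at 0.0493 RPKM. The spans share 1188 bases, and whether exons overlap was not examined. Reads that fit processed pseudogenes or other near-identical copies were not examined.

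All 10 genes were detected in every library, as were 15256 of the 25587 listed genes, but the 10 stood at very different levels. Their median RPKM in NGOs, GO1, GO2 and FGOs was 16.8, 26.4, 27.9 and 23.4, against 0.153, 0.143, 0.166 and 0.173 for all listed genes. The median member stood at percentile 91.2, 95.1, 95.6 and 93.8 of all listed genes in these libraries. Bmi1 was the highest of the 10 in each library, between percentiles 96.4 and 98.9, and the lowest, Kdm6b in NGOs and Ring1 in the other libraries, was between percentiles 59.5 and 61.0.

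**Figure D1:**
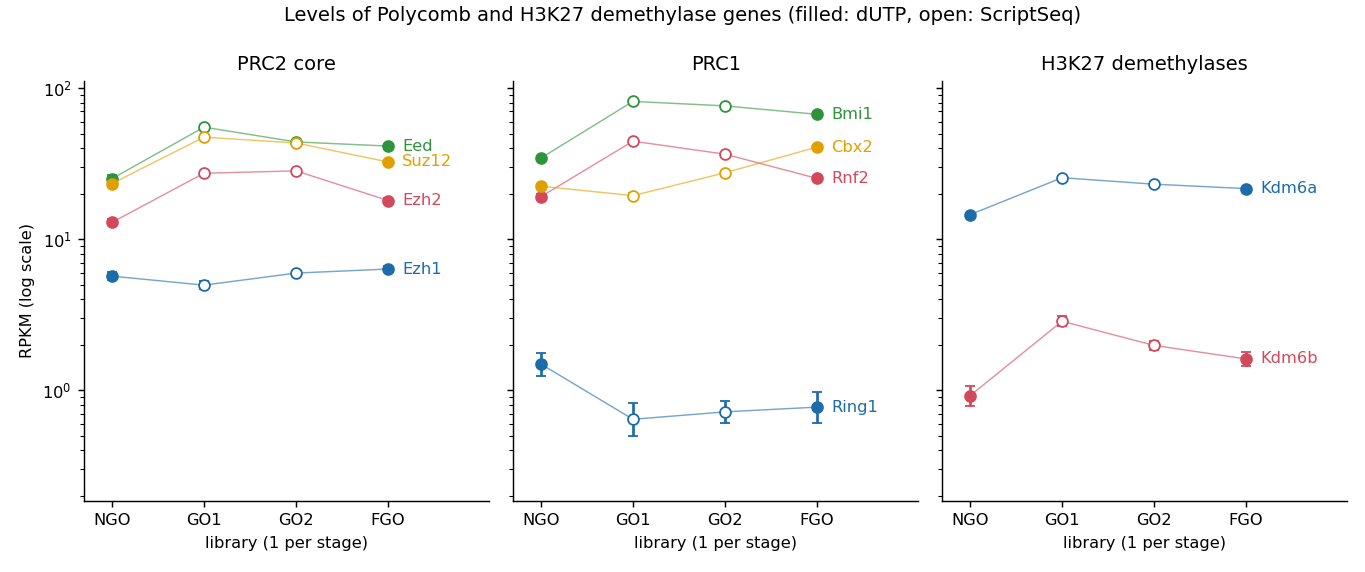
RPKM on a log axis of the 10 genes in the NGO, GO1, GO2 and FGO libraries, with 1 point per library, 95 % counting intervals that take 4 reads as 1 fragment, filled points for the dUTP protocol and open points for the ScriptSeq kit. Ring1 and Kdm6b lie between 0.642 and 2.86 RPKM, Ezh1 between 4.96 and 6.34, and the other 7 genes between 12.9 and 81.6.

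In PRC2, Ezh1 and Ezh2 encode alternative catalytic subunits, and the stretches upstream of their RefSeq starts are shown because the paralogs differed in both level and pattern. Both are the 250 bases before the RefSeq start on GRCm38.p6, read 5′ to 3′ on the minus strand, at chr11:101226464-101226713 for Ezh1 and chr6:47595031-47595280 for Ezh2, with the CCAAT box (CCAAT, or ATTGG on the other strand) in capitals. The RefSeq start of Ezh2 lies inside the gene as the table places it, so its stretch lies within that gene's span, whereas the Ezh1 stretch directly adjoins the table's start.
Ezh1: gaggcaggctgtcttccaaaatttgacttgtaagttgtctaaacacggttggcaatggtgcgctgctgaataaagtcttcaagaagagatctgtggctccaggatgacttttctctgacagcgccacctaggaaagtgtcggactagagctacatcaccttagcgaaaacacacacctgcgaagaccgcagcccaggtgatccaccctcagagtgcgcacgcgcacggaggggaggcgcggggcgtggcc
Ezh2: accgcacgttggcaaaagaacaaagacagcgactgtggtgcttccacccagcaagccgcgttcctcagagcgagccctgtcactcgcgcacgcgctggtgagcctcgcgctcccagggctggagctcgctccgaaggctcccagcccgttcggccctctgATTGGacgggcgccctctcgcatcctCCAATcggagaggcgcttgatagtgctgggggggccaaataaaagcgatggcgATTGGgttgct
The Ezh2 stretch holds 3 CCAAT boxes and 23 CpGs, and the Ezh1 stretch holds no CCAAT box and 14 CpGs. Over 32817 such stretches in the reference, 33.8 % hold CCAAT and the median number of CpGs is 6.00. The E2F letters TTTGGCGC and TTTCGCGC, searched on both strands, are in neither stretch, and 0.417 % and 0.256 % of all stretches hold them.

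Ezh1 (chr11:101191115-101226463, minus strand, GRCm38) was at 5.69 RPKM in NGOs, at 4.96 and 5.96 in GO1 and GO2, and at 6.34 in FGOs. Its level was the most even of the 10 genes, with a log2 change of 0.21 from NGOs to FGOs (interval 0.10 to 0.32) and of 0.23 from GO1 to GO2 (0.13 to 0.33). Ezh2 (chr6:47530274-47595341, minus strand), which encodes the alternative catalytic subunit, was at 12.9 RPKM in NGOs, at 27.3 and 28.3 in GO1 and GO2, and at 18.0 in FGOs. The GO1 and GO2 intervals of Ezh2 overlapped (26.5 to 28.0 and 27.7 to 28.8), and both libraries lay above NGOs and FGOs. From NGOs to FGOs the log2 change of Ezh2 was 0.53 (0.45 to 0.61), and from GO1 to GO2 it was 0.02 (−0.03 to 0.07), an interval that includes 0.

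Ezh2 was the more abundant of the pair in every library. Its share of the summed RPKM of Ezh1 and Ezh2 was 69.4 % in NGOs (67.84 to 71.04) and 74.0 % in FGOs (72.68 to 75.24), and it was 84.6 % in GO1 (83.71 to 85.48) and 82.6 % in GO2 (81.92 to 83.23). The intervals of the 4 libraries do not overlap, and both ScriptSeq libraries had the larger shares, so that stage and kit cannot be told apart in that order. Within the dUTP pair the share was larger in FGOs, and within the ScriptSeq pair it was smaller in GO2.

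Eed (chr7:89954656-89980983, minus strand) encodes the subunit that reads methylated H3K27, and it was at 25.1 RPKM in NGOs, at 55.1 and 44.0 in GO1 and GO2, and at 41.3 in FGOs. It was lowest in NGOs, and its log2 change was 0.77 (0.68 to 0.86) from NGOs to FGOs and −0.36 (−0.42 to −0.30) from GO1 to GO2. Suz12 (chr11:79993106-80034123, plus strand), the scaffold subunit, was at 23.3, 47.3, 43.3 and 32.4 RPKM in NGOs, GO1, GO2 and FGOs. Its change was 0.53 (0.46 to 0.59) from NGOs to FGOs and −0.16 (−0.20 to −0.12) from GO1 to GO2. Eed and Suz12 were thus ordered alike over the libraries, with NGOs lowest and GO1 highest. Their intervals overlapped in NGOs (23.9 to 26.4 and 22.5 to 24.1) and in GO2 (42.8 to 45.1 and 42.5 to 44.0), while Eed was higher in GO1 and in FGOs.

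The remaining core subunits of PRC2, the histone-binding proteins encoded by Rbbp4 and Rbbp7, differed from each other by a larger factor than any pair among the 4 in each library. Rbbp7 was at 124, 176, 149 and 169 RPKM in NGOs, GO1, GO2 and FGOs, and Rbbp4 at 11.6, 5.40, 3.82 and 6.25. Both proteins also belong to other chromatin complexes.

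In PRC1, Ring1 and Rnf2 encode alternative ubiquitin ligases, and they were more unequal in level than Ezh1 and Ezh2 in every library. The 250 bases upstream of each are shown for that contrast, from RefSeq on GRCm38.p6, minus strand, at chr17:34024681-34024930 for Ring1 and chr1:151500992-151501241 for Rnf2, with the GC box (GGGCGG, or CCGCCC on the other strand) in capitals. The Ring1 stretch adjoins the start given in the table, and the Rnf2 stretch lies a short way upstream of it.
Ring1: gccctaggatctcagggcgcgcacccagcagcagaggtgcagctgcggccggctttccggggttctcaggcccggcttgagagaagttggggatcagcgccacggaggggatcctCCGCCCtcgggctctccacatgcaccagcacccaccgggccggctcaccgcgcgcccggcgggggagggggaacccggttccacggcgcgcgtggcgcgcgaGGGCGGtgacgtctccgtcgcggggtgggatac
Rnf2: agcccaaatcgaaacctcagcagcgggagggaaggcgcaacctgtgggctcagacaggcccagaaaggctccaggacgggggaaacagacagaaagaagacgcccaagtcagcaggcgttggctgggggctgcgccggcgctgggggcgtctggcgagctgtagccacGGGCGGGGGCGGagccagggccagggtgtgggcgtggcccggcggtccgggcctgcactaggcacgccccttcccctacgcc
Each holds 2 GC boxes, a motif in 32.7 % of all such stretches, and neither holds CCAAT. Both are rich in CpGs, with 30 in the Ring1 stretch (percentile 94.8) and 20 in the Rnf2 stretch (percentile 83.7). Upstream stretches of 8 of the 10 genes were found in the reference, those of Cbx2 and Kdm6b not being matched. GC boxes stand in 5 of the 8 (Suz12, Ring1, Rnf2, Bmi1 and Kdm6a), and the ETS letters CCGGAAG, in 6.90 % of all stretches, stand in none.

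Ring1 (chr17:34020792-34024680, minus strand) was at 1.49 RPKM in NGOs, at 0.642 and 0.719 in GO1 and GO2, and at 0.773 in FGOs, from 536, 264, 563 and 300 reads. It was highest in NGOs, while the intervals of the other 3 libraries overlapped (0.497 to 0.817, 0.605 to 0.848 and 0.608 to 0.969). Ring1 was the only one of the 10 genes that was lower in FGOs than in NGOs, with a log2 change of −0.90 (−1.33 to −0.48), whose interval reaches past the 2-fold line. The stroma and theca markers had their highest sum, 5.61 RPKM, in the same library as Ring1. In NGOs the collagens Col1a1, Col3a1 and Col1a2 were at 2.24, 1.73 and 0.896 RPKM. Star and Cyp17a1 were instead highest in GO2, at 0.208 and 0.0249 RPKM, and 7 of 8 markers were detected in NGOs, GO1 and GO2 alike. The part of such cells in the level of Ring1 was not tested. Rnf2 (chr1:151469406-151500823, minus strand) was at 19.1, 44.5, 36.5 and 25.2 RPKM in NGOs, GO1, GO2 and FGOs, and no pair of intervals overlapped. Its change was 0.45 (0.36 to 0.55) from NGOs to FGOs and −0.32 (−0.37 to −0.26) from GO1 to GO2. Rnf2 was 12.8, 69.2, 50.7 and 32.5 times the level of Ring1 in these libraries, which gives it 92.7 to 98.6 % of their summed RPKM.

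Bmi1 (chr2:18677018-18686629, plus strand), a PCGF subunit that stimulates the ligase, was at 34.4 RPKM in NGOs, at 81.6 and 76.2 in GO1 and GO2, and at 67.0 in FGOs. It was lowest in NGOs and at 65.6 RPKM or more at the lower bound in each later library. Bmi1 was 2.02-fold higher in FGOs than in NGOs (log2 change 1.02, interval 0.96 to 1.07), the largest same-kit change of the 10 genes, and lay on the 2-fold line: with the deposited totals in place of the trimmed-mean scaling its log2 change was 0.96. From GO1 to GO2 its change was −0.13 (−0.17 to −0.10). Pcgf2, which encodes the closest relative of BMI1, had 5, 17, 30 and 5 reads in NGOs, GO1, GO2 and FGOs, so Bmi1 held at least 99.95 % of the summed RPKM of the pair in each library. Of the other PCGF genes, which mark variant PRC1 complexes, Pcgf1 was at 44.4 to 79.2 RPKM and Pcgf6 at 33.7 to 61.6, while Pcgf3 and Pcgf5 were at 2.17 to 6.94.

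Cbx2 (chr11:119022962-119031270, plus strand), a reader of methylated H3K27 that also compacts chromatin, was at 22.4 RPKM in NGOs, at 19.4 and 27.5 in GO1 and GO2, and at 40.7 in FGOs. It was the only gene of the 10 that was highest in FGOs by intervals that overlapped no other library (39.6 to 41.8 in FGOs, 26.9 to 28.2 in GO2). Its change was 0.91 (0.85 to 0.98) from NGOs to FGOs and 0.47 (0.41 to 0.54) from GO1 to GO2, so that it was higher in the later library of both same-kit pairs. Ezh1 was the other gene with intervals above 0 in both pairs.

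Of the genes for other CBX readers, Cbx6 was at 0.137 RPKM in NGOs and at most 0.0364 in the other libraries, Cbx7 at 1.09 to 1.87 and Cbx8 at 0.846 to 2.07, each below Cbx2 in every library. Cbx6 and Cbx8 were highest in NGOs, while the NGO and FGO intervals of Cbx7 overlapped (1.68 to 2.08 and 1.58 to 1.95). From NGOs to FGOs the log2 change of Cbx6 was −1.94 (−3.64 to −0.73), from 95 and 25 reads, and it was −0.14 on the log2(RPKM + 1) scale. The summed RPKM of the stroma and theca markers was highest in NGOs too, but Star and Cyp17a1 were highest in GO2, at 0.208 and 0.0249 RPKM. What part such cells have in the level of Cbx6 was not tested.

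Kdm6a (chrX:18162575-18279936, plus strand), the X-linked demethylase that is also a subunit of the MLL3 and MLL4 complexes, was at 14.5 RPKM in NGOs, at 25.5 and 23.1 in GO1 and GO2, and at 21.6 in FGOs. It was lowest in NGOs, with a change of 0.63 (0.57 to 0.70) from NGOs to FGOs and of −0.18 (−0.22 to −0.13) from GO1 to GO2. Kdm6b (chr11:69398508-69413675, minus strand), a demethylase known for its induction by signals, was at 0.918, 2.86, 1.98 and 1.61 RPKM in NGOs, GO1, GO2 and FGOs, from 706, 2526, 3332 and 1341 reads. It too was lowest in NGOs and highest in GO1, and its change was 0.86 (0.60 to 1.14) from NGOs to FGOs and −0.56 (−0.71 to −0.41) from GO1 to GO2, the largest same-kit difference of the 10 genes within the growing stages. Kdm6a was 15.8, 8.91, 11.6 and 13.4 times the level of Kdm6b in the 4 libraries, or 89.9 to 94.0 % of their summed RPKM. Uty, the Y-linked relative, was on the wider list and was not matched to a row of the table.

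**Figure D2:**
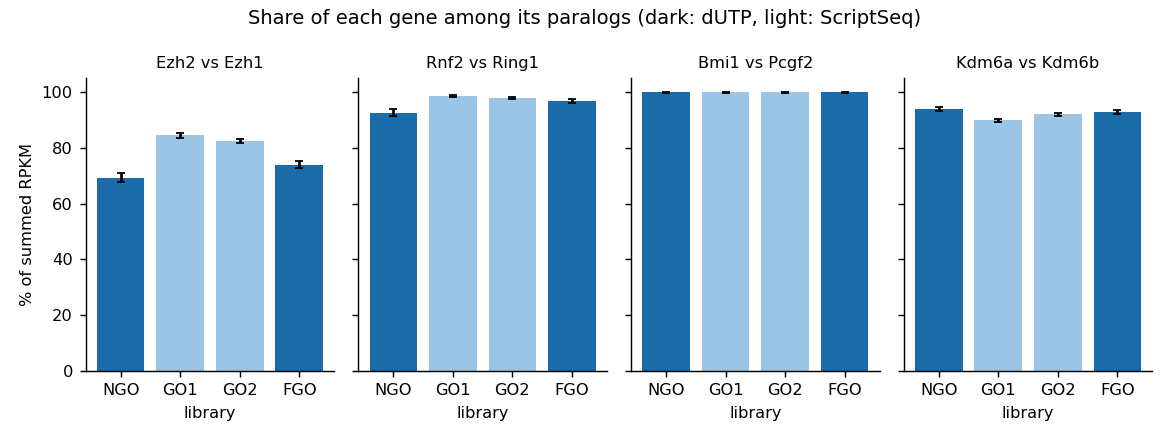
Share, in % of summed RPKM, of Ezh2, Rnf2, Bmi1 and Kdm6a beside the named paralog in the NGO, GO1, GO2 and FGO libraries, with 95 % Wilson intervals that take 4 reads as 1 fragment, dark bars for the dUTP protocol and light bars for the ScriptSeq kit. Ezh2 has the smallest shares, from 69.4 to 84.6 %, and Bmi1 the largest, at least 99.95 %.

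The order of the 10 genes changed little from library to library at the top and at the bottom. Bmi1 led in all 4 libraries, and Ezh1, Ring1 and Kdm6b took the last 3 places in all 4. In NGOs, Eed, Suz12 and Cbx2 followed Bmi1 with overlapping intervals between neighbours, and Rnf2, Kdm6a and Ezh2 came next. In GO1 the order was Bmi1, Eed, Suz12, Rnf2, Ezh2, Kdm6a and Cbx2, and no neighbours overlapped. In GO2, Eed and Suz12 overlapped, as did Ezh2 and Cbx2, which stood behind Rnf2 and ahead of Kdm6a. In FGOs, Eed and Cbx2 overlapped in the places after Bmi1, ahead of Suz12, Rnf2, Kdm6a and Ezh2. Cbx2 thus moved from the last place among these 7 genes in GO1 to a place beside Eed in FGOs.

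From NGOs to FGOs, 9 of the 10 genes had a log2 change above 0, beside 49.5 % of the 15266 genes tested. Ring1 had a change below 0, and all 10 intervals lay on their side of 0. The median change of the 10 was 0.58, beside −0.01 over the 15266 genes tested. At the 2-fold threshold, Bmi1 was higher and none was lower, while 17.7 % of all genes tested were at least 2-fold higher and 16.8 % at least 2-fold lower. A share of 1 in 10 is not above this background. At 1.5-fold, 5 genes were higher (Bmi1, Cbx2, Kdm6b, Eed and Kdm6a) and 1 was lower, beside 27 % and 27.2 % of all genes. In pools of oocytes, fewer cells of a type and less RNA per cell cannot be told apart, and since RPKM is relative to the whole library, these differences say nothing of the amount of RNA in an oocyte, which grows greatly in volume between these stages.

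From GO1 to GO2, no member reached 2-fold in either direction, where 6.88 % of the 15747 genes tested were higher and 2.85 % lower. The changes were above 0 for Ezh1, Ezh2, Ring1 and Cbx2 and below 0 for the other 6, with a median of −0.15 beside 0.02 over all genes. Of all genes tested, 51.5 % had a change above 0. For Ezh2 and Ring1 the interval included 0. Eed, Suz12, Rnf2, Bmi1, Kdm6a and Kdm6b, which were higher in FGOs than in NGOs, were all lower in GO2 than in GO1, with log2 changes of −0.56 to −0.13. How many of all genes had this pattern was not counted.

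**Figure D3:**
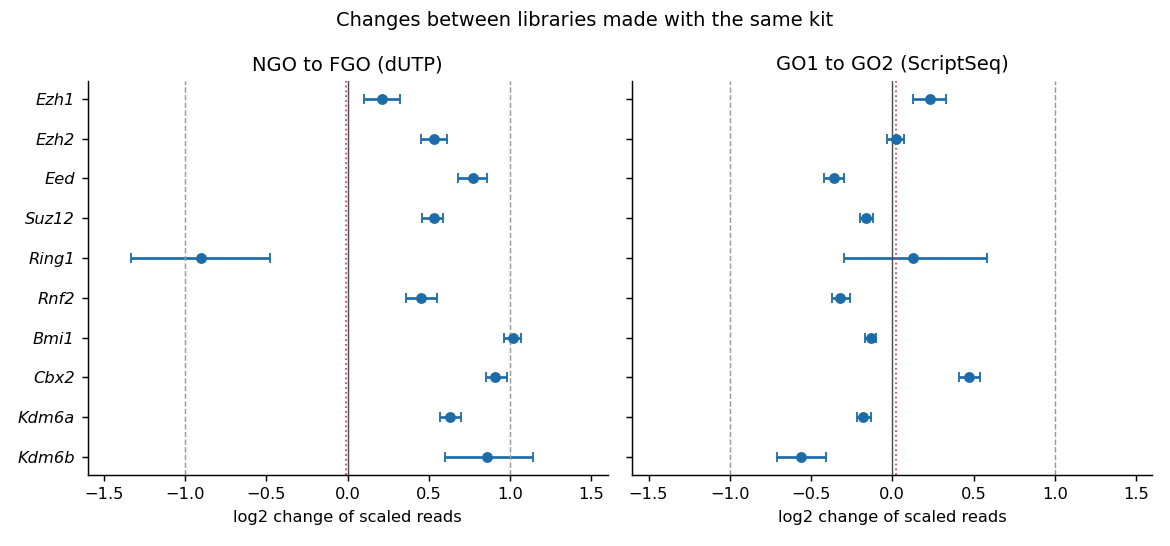
Log2 change of scaled reads of the 10 genes between the dUTP libraries (NGOs to FGOs) and between the ScriptSeq libraries (GO1 to GO2), with 95 % counting intervals that take 4 reads as 1 fragment, dashed lines at 2-fold and a dotted line at the median of all genes tested. In the dUTP pair 9 genes lie above 0, beside 49.5 % of all genes tested, and Ring1 lies at −0.90. In the ScriptSeq pair the values run from −0.56 for Kdm6b to 0.47 for Cbx2.

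Of the pairs that cross kits, NGOs to GO1 had larger differences than either same-kit pair and GO2 to FGOs smaller ones than NGOs to FGOs, by the number of the 10 genes past 2-fold and by the median. From NGOs to GO1, 6 of the 10 genes were at least 2-fold higher: Ezh2 (2.30-fold), Eed (2.40-fold), Suz12 (2.22-fold), Rnf2 (2.55-fold), Bmi1 (2.59-fold) and Kdm6b (3.41-fold). Ring1 was 2.13-fold lower, Kdm6a was close to the threshold with a log2 change of 0.95, and the intervals of Ezh1 (−0.07, −0.19 to 0.05) and Cbx2 (−0.08, −0.16 to 0.00) reached 0. Over all 15133 genes tested in this pair, 16.5 % were higher and 21.3 % lower. From GO2 to FGOs none of the 10 reached 2-fold, beside 10.9 % higher and 9.26 % lower of 15803 genes. Ezh2, at −0.76 (−0.81 to −0.70), and Rnf2, at −0.64 (−0.71 to −0.58), differed most downwards, and Cbx2 was the only gene whose interval lay above 0, at 0.46 (0.40 to 0.51). Of all genes tested in this pair, 49.8 % had a change above 0. The intervals of Ezh1 (−0.02, −0.11 to 0.08) and Ring1 (−0.43 to 0.41) included 0, and with the deposited totals their changes were above 0, at 0.09 and 0.10.

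Whether a gene's level followed the kit was counted over all 4 libraries after scaling. In 7 of the 10 genes (Ezh2, Eed, Suz12, Rnf2, Bmi1, Kdm6a and Kdm6b) both ScriptSeq libraries lay above both dUTP libraries, in Ring1 both lay below, and Ezh1 and Cbx2 followed neither order. Of 16683 genes, 25.2 % had both ScriptSeq libraries above and 25.9 % had both below. Of the 65 genes of the wider list described next, which includes the 10, 31 had both above and 12 had both below. An order in which oocytes in growth have the highest levels and an order set by the kit give the same pattern here and cannot be told apart. For Cbx2 and Ezh1, which followed neither order, the part of the kit in their levels was not tested. The same-kit changes named above are each between libraries of the same kit.

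The 10 genes belong to a wider list of 66 Polycomb and H3K27 genes, sorted by role, of which 65 were in the table and had at least 3 reads in every library. Of all 25587 genes, 15256 had at least 3 reads in every library. From NGOs to FGOs, 64 of them could be compared (Pcgf2 had too few reads), 6 were at least 2-fold higher and 1, Cbx6, was at least 2-fold lower, with a median change of 0.17. From GO1 to GO2, none was higher and 1 was lower, with a median of −0.15. In these same-kit pairs the shares of the list were below those of all genes given above. From NGOs to GO1, which crosses kits, 23 of 65 were at least 2-fold higher and 4 lower, beside 16.5 % and 21.3 % of all genes. From GO2 to FGOs, which also crosses kits, 1 was higher and 7 were lower, beside 10.9 % and 9.26 %. The 23 higher and the 7 lower include Pcgf2, whose intervals in these pairs include 0. By role, the median changes from NGOs to FGOs were 0.51 for 6 PRC2 core genes, 0.31 for 9 PRC2 accessory genes, 0.16 for the 5 PCGF genes compared, −0.04 for 9 genes of canonical PRC1, −0.02 for 16 of variant PRC1, 0.40 for 8 of the H2A deubiquitinase PR-DUB, 0.06 for 5 of the MLL3 and MLL4 complexes and −0.37 for the 2 H3K27 acetyltransferases. For the pairs Ring1 with Rnf2 and Kdm6a with Kdm6b, all among the 10 genes, the medians were −0.22 and 0.75, the latter being the highest of the roles.

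Among the PRC2 accessory genes, Ezhip, listed as AU022751 and encoding an inhibitor of PRC2 known from germ cells, was by far the highest, at 123, 96.1, 121 and 251 RPKM in NGOs, GO1, GO2 and FGOs. It stood above Ezh2 in every library, and it was 2.12-fold higher in FGOs than in NGOs (log2 change 1.09, 1.05 to 1.13). Phf19, which encodes a Polycomb-like subunit that guides PRC2 to chromatin, was at 0.539 RPKM in NGOs and 1.27 in FGOs, a log2 change of 1.29 (0.90 to 1.70) that was 0.56 on the log2(RPKM + 1) scale. Phf19, Rbbp4, Cbx6, Cbx7, Cbx8, Scml2, Kdm2b, Mbd5, Kmt2d, Ep300, Crebbp and the PCGF genes other than Bmi1 and Pcgf2 were singled out after their values had been seen.

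In PRC1 and PR-DUB, the genes at least 2-fold higher in FGOs than in NGOs besides Bmi1 were Scml2, Kdm2b and Mbd5. Scml2, which encodes a PRC1 partner of germ cells, was at 10.2, 33.5, 38.5 and 39.1 RPKM in NGOs, GO1, GO2 and FGOs, a change of 1.99 (1.91 to 2.07) from NGOs to FGOs. Kdm2b, whose product brings variant PRC1 to unmethylated CpG islands, was at 7.14, 15.4, 17.4 and 17.7 RPKM, a change of 1.36 (1.29 to 1.43). Mbd5 was at 0.646 RPKM in NGOs and 1.62 in FGOs, a change of 1.38 (1.17 to 1.59) that was 0.67 on the log2(RPKM + 1) scale. The highest gene of the whole list was Skp1a, which encodes a subunit shared by the KDM2B complex and many ubiquitin ligases, at 534 to 629 RPKM. The gene of the list that was at least 2-fold lower in GO2 than in GO1 was Kmt2d, with a log2 change of −1.54 (−1.65 to −1.44, or −0.95 on the log2(RPKM + 1) scale), which encodes an H3K4 methyltransferase of the complex that holds KDM6A. The acetyltransferases that place the competing H3K27 mark, Ep300 and Crebbp, were at 3.61, 9.04, 5.13 and 2.41 RPKM and at 10.1, 27.5, 18.8 and 8.46 RPKM in NGOs, GO1, GO2 and FGOs. From NGOs to FGOs the log2 change was −0.53 (−0.67 to −0.38) for Ep300 and −0.20 (−0.29 to −0.11) for Crebbp. Of the PRC2 core genes, Ezh1, Ezh2, Eed, Suz12 and Rbbp7 lay higher in FGOs, and Rbbp4 lay lower, at −0.84 (−0.93 to −0.75).

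**Figure D4:**
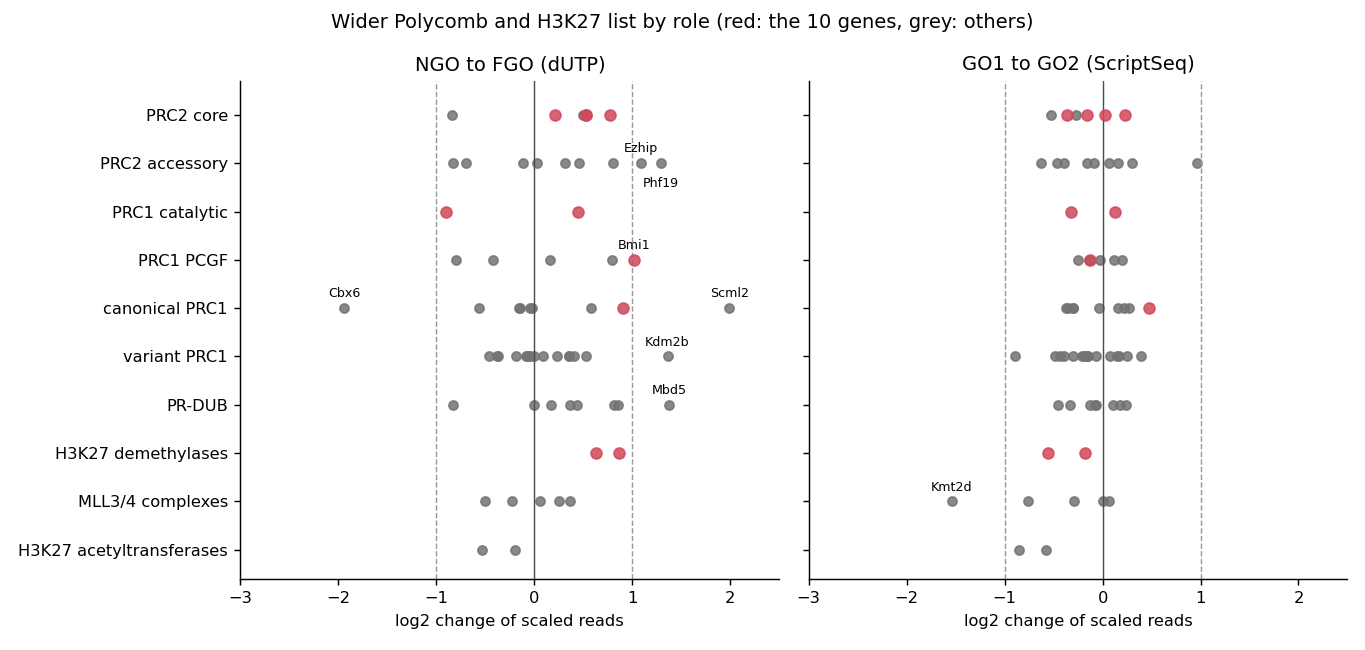
Log2 change of scaled reads of each gene of the wider Polycomb and H3K27 list by role, in the dUTP pair (NGOs to FGOs) and in the ScriptSeq pair (GO1 to GO2), with the 10 genes in red, other genes in grey and dashed lines at 2-fold. Scml2 at 1.99 and Cbx6 at −1.94 are the ends of the range from NGOs to FGOs.

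Genes with a pattern like a member's were looked for among the 10749 genes with at least 100 reads in every library, by the distance between log2 RPKM over the 4 libraries after taking off each gene's mean. For Bmi1 the nearest were Msl2 (4.38, 10.3, 9.78 and 8.54 RPKM in NGOs, GO1, GO2 and FGOs, distance 0.0159) and Stat4 (distance 0.0221). For Cbx2 they were Pcyt1a (5.67, 4.89, 7.02 and 10.3 RPKM, distance 0.00945) and Patz1 (distance 0.0349). For Ring1 they were Map3k3 (1.91, 0.790, 0.885 and 0.972 RPKM, distance 0.0478) and Sra1 (distance 0.0718). With 4 libraries many genes share a pattern, and 62, 88 and 89 genes lay within a distance of 0.2 of Bmi1, Cbx2 and Ring1.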

How the data were processed

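RNA-Seq values of 4 libraries, 1 for each oocyte stage, were analysed. The authors deposited RPKM on a linear scale for 25587 genes, under a name that speaks of read counts. The submitters' processing notes name Trim Galore 0.2.8 and TopHat2 2.0.9 on GRCm38. The program, annotation and strand setting behind the RPKM values are not given in the sources used here.

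Reads were recovered from RPKM. A total was fitted for each library that made RPKM times exon length whole for genes with 1 exon in GENCODE on GRCm38, and at least 99.5 % of those values came out whole within 0.02 reads. Other genes took the exon length that gave whole reads in all libraries: the GENCODE exon union (9439 genes), a GENCODE transcript (1370) or the smallest length that fitted (10214). Ezh2, Eed, Rnf2 and Kdm6a were in the last class. The NGO, GO1, GO2 and FGO libraries had 62285258, 72631508, 134563756 and 69832533 recovered reads on genes, and 4564 genes were at 0 in all libraries. Recovery and scaling were tested on simulated data. The simulated libraries shared an averaged profile with few changed genes, whereas many genes differ 2-fold here, so the scaling was not tested in that setting.

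Changes are log2 ratios of recovered reads with trimmed-mean scaling (30 % of ratios and 5 % of expression trimmed at each end), a prior count of 1 and at least 20 reads in the pair. Intervals were exact Poisson for levels, exact conditional binomial for changes and Wilson for shares, at 95 %, counting error only. The 10 genes and all lists were chosen with earlier results of these data known. Named besides the 10 genes were listed genes with 100 reads and a 4-fold same-kit change (none), the 3 highest by mean RPKM, paralogs used in shares, genes with under 3 reads in all libraries (none), and the 2 nearest patterns of the 3 most changed members. An item of the planned list, and the share that needed it, are not reported here. Listed genes named outside this rule were chosen after their values were seen. Other scalings, prior counts, pseudocounts, filters and thresholds were tried. Upstream stretches came from RefSeq. Python 3.11.15, numpy 2.4.6, pandas 2.3.3, scipy 1.17.1 and matplotlib 3.10.9 were used.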

Additional observations from a re-analysis of the deposited data

How the results depend on the processing

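No paired analysis was possible because each stage had 1 library, and for the same reason no library could be left out. Between NGOs and FGOs, GO1 and GO2, and NGOs and GO1, the changes of the 10 genes kept their sign under every scaling, prior count and pseudocount tried. From GO2 to FGOs 8 of the 10 did, and Ezh1 (−0.02) and Ring1, both with intervals that include 0, were at 0.09 and 0.10 with the deposited totals. Of the 10 genes, the number at least 2-fold higher from NGOs to FGOs was 1 as reported, 0 with the deposited totals, 0 with log2(RPKM + 0.1), 0 with log2(RPKM + 1), 0 at 4-fold and 5 at 1.5-fold, and the number lower was 0 and became 1 at 1.5-fold. From NGOs to GO1 the number higher was 6 and became 0 at 4-fold, and the number lower was 1 and became 0 with log2(RPKM + 1) and at 4-fold. From GO2 to FGOs the number lower was 0 and became 2 of 10 at 1.5-fold, beside 20.2 % of all genes at that threshold. For the wider list from NGOs to FGOs, the 6 higher became 5 with the deposited totals, 3 with log2(RPKM + 1), without Bmi1, Phf19 and Mbd5, and 0 at 4-fold, and the 1 lower became 0 with log2(RPKM + 0.1), with log2(RPKM + 1) and at 4-fold. From GO1 to GO2 the 1 lower became 0 with log2(RPKM + 1) and at 4-fold. From NGOs to GO1, 23 of the 65 listed genes were higher and 4 lower, beside 16.5 % and 21.3 % of all genes. The 23 and 4 became 14 and 0 with log2(RPKM + 1) and 0 and 0 at 4-fold. From GO2 to FGOs, 1 of the 65 was higher and 7 were lower, beside 10.9 % and 9.26 % of all genes. The 1 higher became 3 with the deposited totals, 2 with log2(RPKM + 0.1) and 0 at 4-fold. The 7 lower became 2 with log2(RPKM + 1) and 0 at 4-fold. For the list, log2(RPKM + 1) was chosen after seeing the data. A higher threshold calls fewer genes by construction. The cause of the other moves was not tested, but the deposited totals shift all genes alike, by −0.05 from NGOs to FGOs, 0.03 from GO1 to GO2, −0.13 from NGOs to GO1 and 0.11 from GO2 to FGOs on the log2 scale, and a pseudocount draws low genes towards 0. The median percentile of the 10 genes in NGOs, GO1, GO2 and FGOs was 86.4, 92.6, 93.8 and 90.6 among genes with at least 3 reads, and 92.7, 96.5, 96.1 and 95.3 by reads without length. By reads without length, Ezh2 held 65.4, 82.1, 79.8 and 70.3 % of the reads of Ezh1 and Ezh2, and Kdm6a held 94.9, 91.3, 93.2 and 94.0 % of those of Kdm6a and Kdm6b. Depth limits Ring1, with 264 to 563 reads, and Pcgf2. Pcgf2 is among the 23 listed genes higher from NGOs to GO1 and the 7 lower from GO2 to FGOs. Its intervals in these pairs include 0 (−1.41 to 7.55 and −7.57 to 0.80 on the log2 scale).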
